A study of Mus musculus with 4 samples.

Results

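In the peak lists of this ChIP-Seq study of mouse liver, 116 microRNA genes were named as the gene nearest to at least 1 called peak of the glucocorticoid receptor (GR) or of E2A. They were taken by symbol, as every gene whose name starts with Mir and a digit or with Mirlet7, and they made up 116 of 6521 nearest genes and 331 of 17545 called peaks (1.89%, Wilson 95% interval 1.70 to 2.10). A called peak is a stretch of genome that the peak caller marked as enriched in 1 sample, and the gene named for it is the one whose start site lies closest. Of the 116 symbols, 3 end in hg and stand for host genes of a microRNA (Mir22hg, Mir17hg and Mir99ahg), and 103 matched a hairpin with a mature strand in the RefSeq table, all with starts within 100 bp of those in the peak lists. The measurements are calls of binding near these genes and give no level of any microRNA.

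GR ChIP-Seq and E2A ChIP-Seq were each carried out in 2 samples of liver (replicates 1 and 2, 4 samples in all), from male C57BL/6 mice of genotype E47+/+ on chow, collected at ZT 10 and labelled untreated. No sample without E47 and no input sample was analysed here, so binding in the absence of E47 was not compared. The replicates are called biological, and the study took both ChIPs from the same livers, but the labels do not tie a GR sample to an E2A sample. The free-text descriptions of the E2A samples name a GR ChIP, and that of E2A replicate 2 also names E47-/- livers, whereas their titles, antibody and genotype fields give E2A and E47+/+, which were followed here. The file names of the GR samples carry the opposite replicate number, so the sample labels were followed, and the study describes its peak list as coming from livers of mice given dexamethasone, a synthetic glucocorticoid, and these files do not settle which holds.

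A microRNA gene is transcribed as a hairpin precursor, often from inside an intron of another gene or from a long non-coding host RNA, and the hairpin is cut to a short mature strand. The mature strand pairs through its seed, bases 2 to 8, with messenger RNAs and lowers their output, so that microRNAs with the same seed form a family. GR is a nuclear receptor that binds the glucocorticoid response element (GRE), a palindrome of 6-base arms around a 3-base spacer, when a glucocorticoid is present, and in liver it drives genes of gluconeogenesis, amino acid and lipid metabolism. E47 is a splice form of the E2A gene product, a basic helix-loop-helix factor that binds the E-box, CANNTG.

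The mature sequences of the microRNAs on which the results turn are given first, from RefSeq on GRCm38.p6 (the mm10 assembly that the files use), 5′ to 3′ with the seed in capitals. The table held a mature sequence for 103 of the 116 genes, with 170 mature strands and 159 different seeds among them. The let-7 strands are shown because 4 member genes code for them and share a seed, the miR-103 and miR-107 strands because they share another, and the miR-101 strands because their annotated ends differ at the 5′ side, which shifts the seed.
let-7a-5p (Mirlet7a-1, chr13:48538239-48538260, minus strand): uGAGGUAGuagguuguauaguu
let-7b-5p (Mirlet7b, chr15:85707325-85707346, plus strand): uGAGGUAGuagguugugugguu
let-7c-5p (Mirlet7c-2, chr15:85706616-85706637, plus strand): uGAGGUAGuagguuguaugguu
let-7i-5p (Mirlet7i, chr10:122985698-122985719, minus strand): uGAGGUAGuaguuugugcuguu
miR-103-3p (Mir103-2, chr2:131288103-131288125, plus strand): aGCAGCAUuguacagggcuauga
miR-107-3p (Mir107, chr19:34820700-34820722, minus strand): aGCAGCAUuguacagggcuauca
miR-101a-3p (Mir101a, chr4:101346957-101346977, minus strand): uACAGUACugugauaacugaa
miR-101b-3p (Mir101b, chr19:29135338-29135356, plus strand): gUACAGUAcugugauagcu
miR-21a-5p (Mir21a, chr11:86584120-86584141, minus strand): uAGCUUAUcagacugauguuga
miR-192-5p (Mir192, chr19:6264857-6264877, plus strand): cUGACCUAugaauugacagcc
miR-194-5p (Mir194-2, chr19:6264658-6264679, plus strand): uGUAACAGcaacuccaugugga
miR-22-3p (Mir22, chr11:75463772-75463793, plus strand): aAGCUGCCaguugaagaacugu
miR-148a-3p (Mir148a, chr6:51269829-51269850, minus strand): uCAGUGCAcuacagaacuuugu
miR-33-5p (Mir33, chr15:82198127-82198147, plus strand): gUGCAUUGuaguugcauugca
miR-26b-5p (Mir26b, chr1:74394324-74394344, plus strand): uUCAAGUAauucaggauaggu
miR-193a-3p (Mir193a, chr11:79712009-79712030, plus strand): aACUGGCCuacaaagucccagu
miR-365-3p (Mir365-2, chr11:79726467-79726488, plus strand): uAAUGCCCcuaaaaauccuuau

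The second set holds bound sites near these genes, each the stretch that the calls of several samples had in common, cut to its central 200 bp where longer, on the plus strand of mm10 with every CANNTG in capitals. They were picked as sites called in 3 or 4 samples that lie near a liver or lipid microRNA. The site at Mir7240 was added, which held 2 CANNTG motifs and a GRE match with 1 mismatch. The Mir21a, Mir192 and Mir7240 stretches were called in all 4 samples, and the Mir33 and Mir193a stretches in GR replicates 1 and 2 and E2A replicate 1.
Mir21a, chr11:86587048-86587247: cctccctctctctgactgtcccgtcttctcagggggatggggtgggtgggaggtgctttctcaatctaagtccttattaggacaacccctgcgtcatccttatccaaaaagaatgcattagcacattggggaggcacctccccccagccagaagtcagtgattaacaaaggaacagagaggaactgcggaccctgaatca
Mir192, chr19:6268849-6268900: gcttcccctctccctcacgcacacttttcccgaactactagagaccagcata
Mir7240, chr8:70798452-70798651: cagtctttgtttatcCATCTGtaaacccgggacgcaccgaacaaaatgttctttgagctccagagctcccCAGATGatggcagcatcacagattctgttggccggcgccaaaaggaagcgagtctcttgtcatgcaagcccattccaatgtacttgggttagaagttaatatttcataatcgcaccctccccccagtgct
Mir33, chr15:82183654-82183853: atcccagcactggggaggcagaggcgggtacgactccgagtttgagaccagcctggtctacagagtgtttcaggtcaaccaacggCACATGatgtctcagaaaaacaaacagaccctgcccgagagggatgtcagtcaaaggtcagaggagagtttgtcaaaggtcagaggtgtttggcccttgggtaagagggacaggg
Mir193a, chr11:79711025-79711224: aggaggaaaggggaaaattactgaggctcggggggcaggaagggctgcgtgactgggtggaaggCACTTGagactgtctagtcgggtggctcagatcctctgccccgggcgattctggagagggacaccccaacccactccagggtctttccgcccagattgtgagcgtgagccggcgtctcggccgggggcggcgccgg
In these stretches the number of CANNTG motifs was 0 at Mir21a, 0 at Mir192, 2 at Mir7240, 1 at Mir33 and 1 at Mir193a, counted in the printed bases only. The whole E2A peaks at Mir192 held 2 in replicate 1 and 3 in replicate 2. At Mir21a the whole stretch common to the 4 samples was 522 bp long and held 2 CANNTG motifs, both outside the central part. In the printed bases the best GRE match had 1 mismatch at Mir7240, 2 at Mir33, 3 at Mir193a, 4 at Mir21a and 5 at Mir192. The whole 522-bp stretch at Mir21a held a GRE match with 2 mismatches. Of the Mir33 stretch, 47.5% is written in lower case in the RefSeq genome, which marks interspersed repeats, against 22.5% at Mir21a, 10% at Mir193a and 0% at Mir192 and Mir7240.

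Across all samples, GR replicate 1 had 110 peaks named for 68 microRNA genes, GR replicate 2 had 107 for 72, E2A replicate 1 had 78 for 57 and E2A replicate 2 had 36 for 28. The whole lists held 4291, 7334, 4028 and 1892 peaks, so the microRNA share was 2.56%, 1.46%, 1.94% and 1.90%. Read depth behind each peak is unknown, since the lists give neither read counts, heights nor scores. Between replicates the calls agreed in part only. Of the microRNA peaks, 50% in GR replicate 1 and 48.6% in GR replicate 2 touched a peak of the other GR replicate, against 65.6% and 37.5% of all peaks, while 25.6% in E2A replicate 1 and 58.3% in E2A replicate 2 touched the other E2A replicate, against 27.9% and 59.8%.

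A GR peak was named for 96 of the 116 genes and an E2A peak for 66, with 46 having both, 50 GR alone and 20 E2A alone. Peaks were called in all 4 samples for 14 genes, in 3 samples for 18, in 2 samples for 31 and in 1 sample for 53. At 44 genes (37.9%, 29.6 to 47.0) a GR and an E2A peak shared at least 1 bp, against 33.0% of all nearest genes, and at 10 genes the calls of all 4 samples had a stretch in common. E2A replicate 1 decided much of this: without it 28 genes kept an E2A peak and 18 kept a shared peak, whereas leaving out any other sample left between 31 and 40 genes with a shared peak. The same was not counted over all nearest genes. The same counts for peaks called in both replicates were 40 genes for GR, 19 for E2A and 11 for shared sites, with the site of Mir22hg counted for Mir22 as well.

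**Figure D1:**
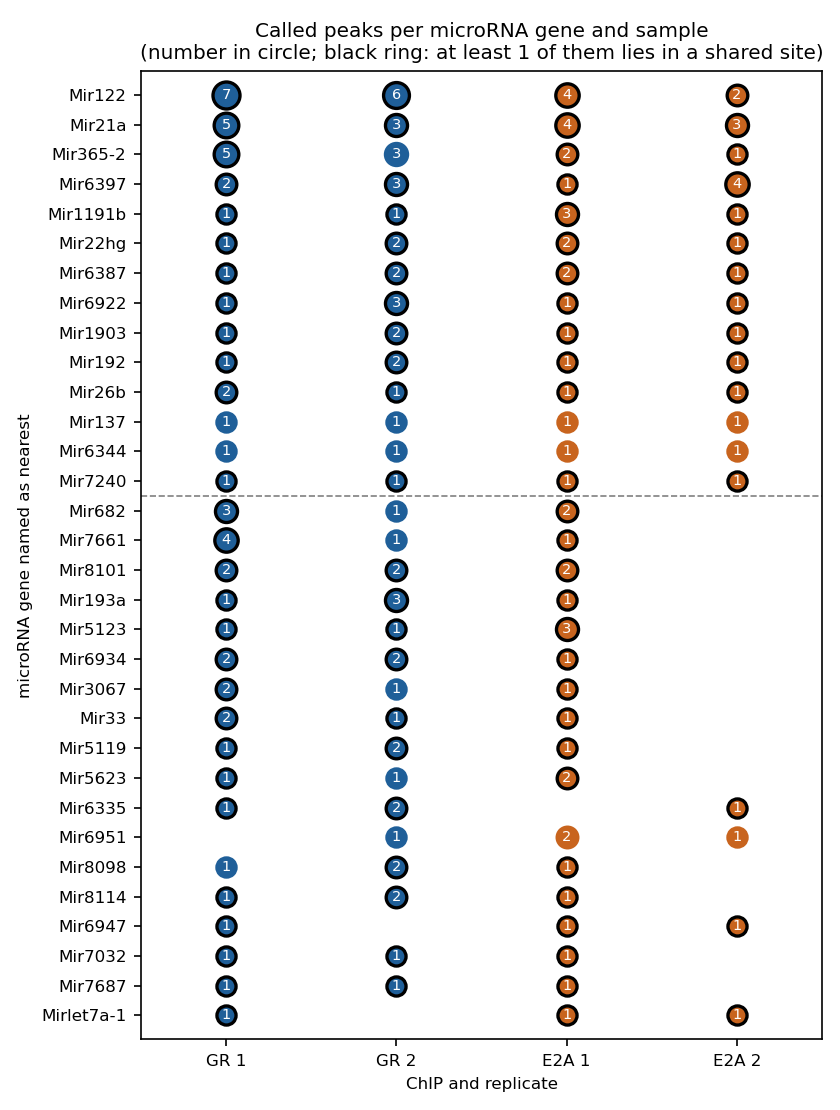
Called peaks (number and size of each circle) for the 32 microRNA genes, on the vertical axis, with peaks in 3 or 4 samples; columns are the 4 samples, blue for GR and orange for E2A, and a black ring marks genes with at least 1 of that sample's peaks in a site shared by GR and E2A. Of the 14 genes above the dashed line, with peaks in all 4 samples, 12 had shared sites and Mir137 and Mir6344 had none.

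The genes with the most called peaks were Mir122 (19) and Mir21a (15), both of the hepatocyte list. Mir122, the source of miR-122, the most abundant microRNA of liver and a regulator of cholesterol and lipid metabolism, had 7 peaks in GR replicate 1, 6 in GR replicate 2, 4 in E2A replicate 1 and 2 in E2A replicate 2. Its hairpin lies at chr18:65248861-65248926 in mm10 within the long non-coding transcript AC157910.3. Distances are given from the start of the microRNA gene, negative upstream. The outermost site was called at -27825 bp and -27631 bp in GR replicates 1 and 2 and at -27818 bp and -27890 bp in E2A replicates 1 and 2, and a second site at -22408, -22381, -22433 and -22395 bp, so both were bound in every sample. A site between them was called at -25857 and -25908 bp in both GR replicates and at -25975 bp in E2A replicate 1, and not in E2A replicate 2. Nearer the hairpin, GR replicate 2 had a peak of 3097 bp that covered it, and GR replicate 1 and E2A replicate 1 had peaks at 854 and 910 bp downstream of its start. A pair of peaks of GR replicate 1, at -4334 and -3368 bp, fell in a 1902-bp peak of GR replicate 2 with no E2A peak. No sequence is given for this locus.

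Mir21a, whose product miR-21 is induced in injured and growing liver, lies at chr11:86584067-86584158 on the minus strand inside Vmp1, an autophagy gene. It had 5 and 3 peaks in the GR replicates and 4 and 3 in the E2A replicates. The site printed above was called at -2709 bp in GR replicate 1, -2696 bp in E2A replicate 1 and -2729 bp in E2A replicate 2, and in GR replicate 2 it fell in a peak of 8171 bp that also covered the hairpin. A second site, within Vmp1 and annotated as the exon of a separate single-exon transcript, was called at -11960 and -12015 bp in the GR replicates and at -12018 bp in E2A replicate 1. Downstream of the hairpin another site was called in all 4 samples, at 3236 bp in GR replicate 1, 3144 bp in E2A replicate 1 and 1353 bp in E2A replicate 2, and within the same wide peak of GR replicate 2. At -29665 bp in GR replicate 1 and -29831 bp in E2A replicate 1 a further site was called in replicate 1 of each ChIP only. At the printed site the widths of the calls differed more between the GR replicates (737 and 8171 bp) than between the E2A replicates (595 and 522 bp).

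Mir192 and Mir194-2 are a cluster of hairpins (chr19:6264844-6264932 and chr19:6264643-6264728) whose products, miR-192 and miR-194, are known for hepatocyte and kidney expression. A single site downstream of Mir192, annotated as an exon, was called in all 4 samples, at 3733 and 3466 bp in the GR replicates and at 4005 and 3610 bp in the E2A replicates. The 4 calls had only the 52 bp printed above in common. GR replicate 2 added a peak at 5187 bp and another at -1119 bp from Mir194-2, with no partner in the other samples.

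Mir22 is transcribed with its host RNA Mir22hg, and the peaks around it were split between the symbols by the nearest-gene rule. The host had 1 and 2 GR peaks and 2 and 1 E2A peaks, of which 1 in each sample joined a site over its first part: peaks of 1655 and 1381 bp in the GR replicates and of 2188 and 396 bp in the E2A replicates. GR replicate 2 and E2A replicate 1 covered the host's start, at chr11:75461539, and the GR replicate 1 peak began 54 bp after it. A further E2A replicate 2 peak, of 281 bp, lay 545 bp upstream of the Mir22 hairpin and was the only peak named for Mir22 itself, although the GR replicate 1 and E2A replicate 1 peaks named for Mir22hg reached into it. The protein-coding gene Tlcd2 starts within the peaks of both GR replicates and of E2A replicate 1, so binding at its promoter and at that of Mir22hg cannot be told apart.

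The peaks named for the remaining hepatocyte microRNA genes were GR peaks only. Mir101b, inside Rcl1, had a site in both GR replicates at -8457 and -7470 bp, and peaks at -5572 and -643 bp in GR replicate 2 alone. Mir148a, whose product acts on cholesterol and lipid genes, had peaks at -796 and 53190 bp, both in GR replicate 2. Mir31 had a peak at 378 bp in GR replicate 2, and Mir101a and Mir130a had peaks at 26888 and -15016 bp in GR replicate 1. The peaks named for these 4 genes each came from a single sample. Peaks named for other genes lay near some of them: the Mir101a hairpin was 5198 and 5130 bp from peaks of GR replicates 1 and 2 and 8610 and 8596 bp from peaks of E2A replicates 1 and 2, and Mir130a was 13386 bp from a GR replicate 2 peak.

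**Figure D2:**
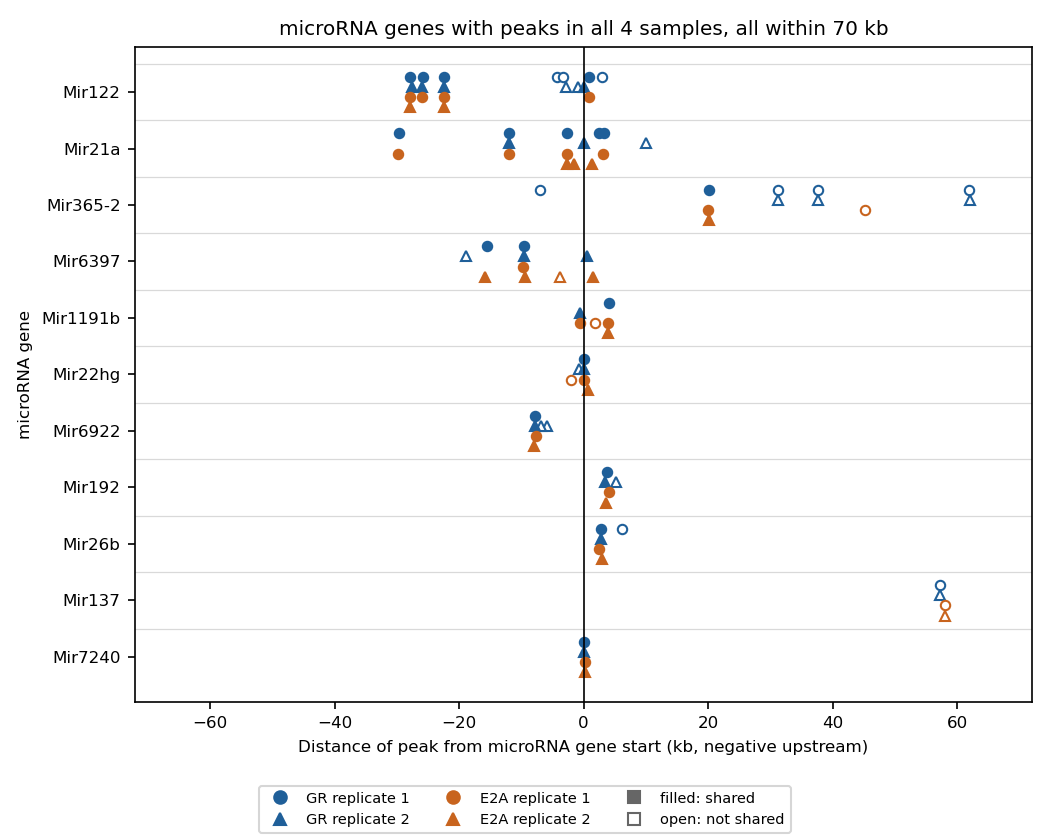
Distance of each called peak from the start of the microRNA gene (horizontal axis, kb, negative upstream) for the 11 genes with peaks in all 4 samples whose peaks all lay within 70 kb; each point is a peak, blue for GR and orange for E2A, circles for replicate 1 and triangles for replicate 2, filled where GR and E2A peaks share bases. Mir122 shows sites of all 4 samples more than 20 kb upstream, Mir192 and Mir26b a single site within 5 kb downstream, and Mir137 neighbouring GR and E2A sites that do not meet.

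Among microRNAs known for lipid and glucose metabolism, Mir33 lies inside Srebf2, the gene for the regulator of cholesterol synthesis, and its product lowers cholesterol efflux. A site in the same gene was called at -14018 and -14171 bp in GR replicates 1 and 2 and at -14210 bp in E2A replicate 1 and was not called in E2A replicate 2. A second peak, at -13003 bp, was called in GR replicate 1 only. A GR replicate 2 peak named for Shisa8 lay nearer, 8612 bp from the Mir33 hairpin. Mir6922 lies inside Srebf1, the gene for the regulator of fatty acid synthesis, and had a site in the first intron of Srebf1 in every sample, at -7868 and -7877 bp in the GR replicates and at -7664 and -7914 bp in the E2A replicates, and 2 more peaks in GR replicate 2. The distance from these peaks to the annotated Srebf1 start was 11897 to 12085 bp. The stretch common to the 4 samples also overlapped an annotated UTR, so the site was not only intronic.

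Mir193a and Mir365-2, of the list for lipid or glucose metabolism, are neighbouring hairpins (chr11:79711969-79712034 and chr11:79726400-79726511). A site upstream of the Mir193a hairpin was called at -593 bp in GR replicate 1, -371 bp in GR replicate 2 and -725 bp in E2A replicate 1, the site printed above. A peak between the hairpins was called in both GR replicates, but the nearest-gene rule gave it to Mir365-2 in GR replicate 1 (-7020 bp) and to Mir193a in GR replicate 2 (6942 bp). Downstream of Mir365-2, sites at 31247 and 31262 bp, at 37639 and 37678 bp and at 61892 and 61971 bp were called in both GR replicates and in neither E2A replicate. A further site at 20114 bp in GR replicate 1 met E2A peaks at 20051 and 20162 bp in both E2A replicates.

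Mir26b, inside Ctdsp1, had a site in the 3′ UTR of that gene in all 4 samples, at 2823 and 2834 bp in the GR replicates and at 2439 and 2879 bp in the E2A replicates. Mir107, inside Pank1, whose product starts coenzyme A synthesis, had a peak at 649 bp in GR replicate 1 that met an E2A replicate 1 peak at 666 bp, with no peak in replicate 2 of either ChIP. Mir103-2, which shares its seed, had a single GR replicate 1 peak at 19896 bp, in Rnf24. Mir29b-1 had 4 peaks in GR replicate 1 and 2 in E2A replicate 1 between -37010 and -74215 bp, of which 2 sites were shared, and none in the second replicates.

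Of the let-7 genes, Mirlet7a-1 had a shared site at -7401 bp in GR replicate 1 and at -7203 and -7279 bp in E2A replicates 1 and 2, upstream of the Mirlet7a-1, Mirlet7f-1 and Mirlet7d cluster, and no peak in GR replicate 2. Mirlet7c-2 and Mirlet7i had peaks annotated as promoter at -712 and -405 bp in GR replicate 2 only, and Mirlet7b a peak at 13065 bp in GR replicate 1 only. Mir30a was called by GR at -15391 and -15447 bp in both replicates and not by E2A. Mir17hg, the host of the miR-17-92 cluster, had a GR replicate 2 peak at 8233 bp that met an E2A replicate 1 peak at 8220 bp.

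Several genes with peaks in all samples stand for less studied microRNAs inside metabolic or regulatory genes. Mir7240, opposite to the kinase gene Mast3, had GR peaks of 2230 and 1986 bp that covered its start and E2A peaks at 235 and 280 bp, with all 4 calls meeting at the printed site. Mir6397 lies opposite to Scp2, the sterol carrier gene, with a site at -9525 and -9585 bp in the GR replicates and -9669 and -9360 bp in the E2A replicates, of which 79.5% of the common stretch is marked as repeat. Mir6397 had its largest number of peaks, 4, in E2A replicate 2, the sample with the fewest peaks in all. Mir1903, inside Nrp1, a gene for a co-receptor of vessel growth factors, had its all-sample site 125375 bp away in GR replicate 1 and 125278 to 125352 bp away in the others. Mir6387 had a site at 147331 and 147369 bp in the GR replicates and 147363 and 147276 bp in the E2A replicates.

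Peaks in all 4 samples did not always mean a common site. Mir1191b, in Nfic, a gene for a nuclear factor I protein, had a GR replicate 1 peak at 4024 bp and a GR replicate 2 peak at -600 bp, each meeting a different E2A peak (3897 and 3993 bp in E2A replicates 1 and 2, and -649 bp in E2A replicate 1). At Mir137 the GR replicates called 57249 and 57280 bp and the E2A replicates 57974 and 58041 bp, with 400 bp between the calls, so this gene had both replicates of both ChIPs and no shared site. At Mir6344 the 4 samples called 4 different sites, at 36925, 56757, 48539 and -180636 bp.

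Of the 18 genes with peaks in 3 samples, 17 had a shared peak and Mir6951 had none. At Mir8114, inside Glul, the glutamine synthetase gene, both GR replicates and E2A replicate 1 covered the microRNA start. Calls of that GR site were named for Glul as well, so binding at Mir8114 and at Glul cannot be told apart. Mir8101 at the start of Hdac5, a histone deacetylase gene, was covered by both GR replicates without E2A and had a shared site at 11005 and 10844 bp in the GR replicates and 11016 bp in E2A replicate 1. Mir8098 at the start of Wdfy2 was covered by GR replicate 2 and E2A replicate 1 and had a second site at 7508 and 7325 bp in both GR replicates. Mir7687 was met within 113 bp of its start by both GR replicates and E2A replicate 1. Mir5123, in B4galt1, had shared sites at 2493 bp (GR replicate 1 and E2A replicate 1) and at -474 and -424 bp (GR replicate 2 and E2A replicate 1), again a different site in each GR replicate. Mir5119 and Mir6335 had shared sites at 30540 and 100869 bp in GR replicate 1 that were also called in GR replicate 2, the first met by E2A replicate 1 and the second by E2A replicate 2. Mir6934 at -29771 and -29776 bp and Mir7032 at 7656 and 7824 bp followed the pattern of both GR replicates and E2A replicate 1. Mir6947 at 7140 bp was called in GR replicate 1 and in both E2A replicates. At Mir682, Mir7661, Mir3067 and Mir5623 the shared site was called in GR replicate 1 and E2A replicate 1 alone, at -204468, 44945, 23577 and -125078 bp in GR replicate 1.

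A further 42 genes had peaks in 1 or 2 samples and a shared peak, a peak in both replicates of a ChIP, or a place in a list below; their closest peak lay within 10 kb at 30 of them. A shared peak was found at 15, and 15 had peaks in both GR replicates with none named for them by E2A, Mir7655 being in both counts. GR peaks that covered the microRNA start in both replicates were seen at Mir7648 with no E2A peak. Starts covered by GR replicate 2 and E2A replicate 1 were those of Mir2861, Mir5131, Mir7653 and Mir8112. The stretches called there and at Mir7648 overlapped annotated UTRs, so binding was not told apart from binding at the genes of those UTRs. Named peaks in both E2A replicates and in neither GR replicate were those of Mir6925 (24771 and 24598 bp) and Mir99ahg (519 and 468 bp). Peaks named for Inca1 lay nearer to Mir6925, at 5555 and 5161 bp in the GR replicates and 5572 bp in E2A replicate 1. Of those with both GR replicates and no E2A, Mir1981, inside Marc2, had sites at -1886 and -4624 bp in GR replicate 1 and at -1915 and -4662 bp in GR replicate 2. Mir292b had sites at -902 and -11115 bp in GR replicate 1 and at -989 and -11109 bp in GR replicate 2, and a peak at -383 bp in the latter only. Both microRNAs thus had a pair of sites that both GR replicates called. Single sites of both GR replicates were called for Mir7015, inside Smap2, at -1571 and -1615 bp, for Mir7041, inside Lrig1, at 4786 and 4812 bp, and for Mir3967, inside Gad2, at 9519 and 9435 bp. Mir1948, inside Ttc39c, had 1 such site at -16422 and -16486 bp and a nearer peak at 7181 bp in GR replicate 1. Those of Mir3072, Mir592 and Mir6378 lay more than 50 kb away. Shared peaks of both first replicates were called for Mir7671, at -36 bp by GR and over the start by E2A, for Mir5100, inside Mief2, at 732 and 753 bp, for Mir3969 at -5125 and -5132 bp and for Mir6353, inside Pid1, at -22277 and -22221 bp. Shared peaks of both second replicates were called for Mir1894, over its start by GR and at 914 bp by E2A, and for Mir339 at 4571 and 4895 bp. These shared peaks had no support in the other replicate of either ChIP.

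The last 42 genes had no shared peak: 11 rested on GR replicate 1 alone, 13 on GR replicate 2 alone, 12 on E2A replicate 1 alone and 5 on E2A replicate 2 alone, and Mir3075 had GR and E2A peaks that did not meet. Mir6388 had 9 peaks, all in GR replicate 1, between chr12:115601986 and chr12:115822617, within the span of 113 immunoglobulin heavy chain variable genes, where the other 3 samples had 0 peaks, and 1 of the 9 overlapped such a gene. Mir6978, in the complement gene C3, had 3 exon peaks, all in GR replicate 2.

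To compare the microRNA peaks with all peaks of the same ChIP, calls of the replicates that shared at least 1 bp were merged, which gave 162 GR and 93 E2A microRNA peaks. Of the GR peaks, 54 met an E2A peak (33.3%, 26.5 to 40.9), against 30.7% of all merged GR peaks, and 55 E2A peaks overlapped GR (59.1%, 49.0 to 68.6), against 58.1% of all. Both replicates called 32.1% of the GR peaks (25.4 to 39.6) and 21.5% of the E2A peaks (14.4 to 30.9), against 31.1% and 23.4%. In each of these 4 shares the value for all peaks lay within the interval of the microRNA peaks. The shares of microRNA peaks that met the other ChIP depended on single samples. Without E2A replicate 1 only 12.3% of the microRNA GR peaks met an E2A peak. Without GR replicate 1 or 2 the share of microRNA E2A peaks that met a GR peak was 39.8% and 45.2%. The same was not counted over all peaks, of which E2A replicate 1 held 4028 and E2A replicate 2 held 1892. Intervals cover counting error only, and peaks at the same gene are not independent.

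Fewer of the microRNA peaks were annotated as promoter. For 102 of the 103 genes matched to a hairpin, the start used was that of the hairpin itself. Inside a gene on the same strand lay 85 of the 116 genes (73.3%). The nearest-gene rule gives a peak nearer to the start of such a host to the host. Whether this accounts for the lower promoter share was not tested. The promoter class held 22.8% of their merged GR peaks (17.05 to 29.9) against 50.4% of all, and 17.2% of their E2A peaks (10.9 to 26.1) against 39.1%. The share of called peaks in promoters was 12.7% in GR replicate 1 and 30.8% in GR replicate 2 against 34.3% and 57.4% of all peaks, and 17.9% in E2A replicate 1 and 11.1% in E2A replicate 2 against 41.2% and 37.1%. It was thus lower than for all peaks in all 4 samples, and without GR replicate 2 the merged GR share was 12.7% and without GR replicate 1 30.8%. The median distance to the start was 14603.5, 6817, 9871 and 7282.5 bp in the 4 samples, against 4901, 47, 2939.5 and 4098 bp. Of 65 promoter peaks, 32 covered the microRNA start and 35 lay within 3 kb of the start of a protein-coding gene. In 20 of these 35 the protein-coding start was as near to the peak as the microRNA start or nearer.

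Sharing was counted by distance as well. Of merged GR peaks that covered a microRNA start, 11 of 18 were shared, of those up to 10 kb away 21 of 64, at 10 to 100 kb 16 of 64, and beyond 100 kb 6 of 16. Over all merged GR peaks the shares in these classes were 30.8%, 29.1%, 32.4% and 31.6%, beside 61.1%, 32.8%, 25% and 37.5% for the microRNA peaks. For E2A peaks the counts were 8 of 10, 25 of 37, 16 of 34 and 6 of 12 (80%, 67.6%, 47.1% and 50%), beside 72.3%, 59.1%, 46.5% and 46.3% of all merged E2A peaks. The differences by class were not tested. Among microRNA promoter peaks 45.9% of GR peaks (17 of 37, 31.0 to 61.6) and 81.2% of E2A peaks (13 of 16, 57.0 to 93.4) were shared. Of all promoter peaks 30.2% and 70.3% were shared, the first value below the interval and the second within it. Outside promoters 29.6% of microRNA GR peaks (37 of 125, 22.3 to 38.1) were shared, against 31.3% of all. For E2A it was 54.5% (42 of 77, 43.5 to 65.2) against 50.3%. Outside promoters both values for all peaks lay within the intervals.

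**Figure D3:**
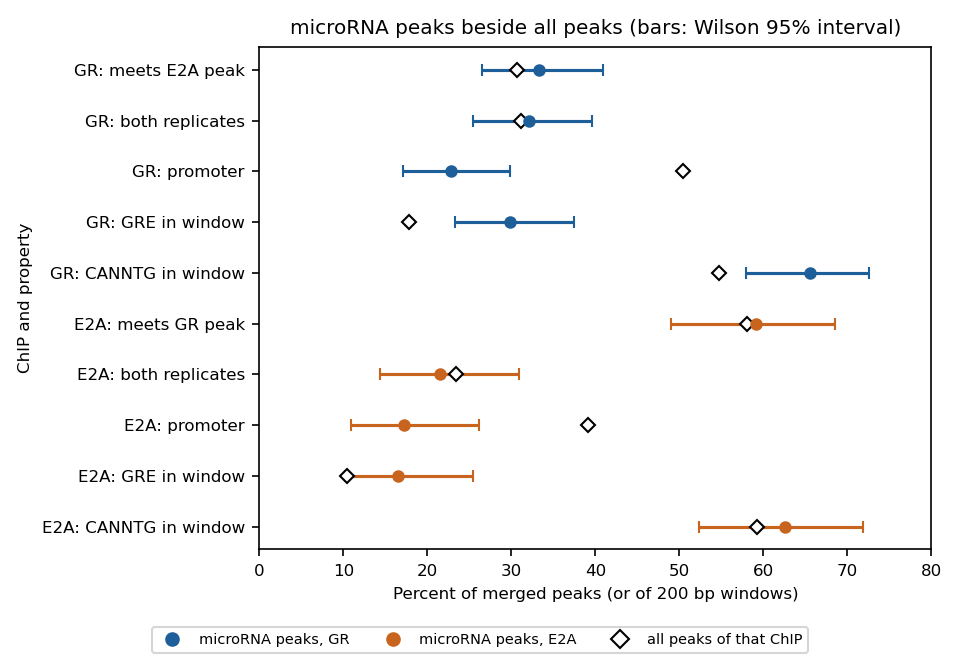
Percent of merged microRNA peaks (circles with Wilson 95% intervals, blue for GR, orange for E2A) and of all merged peaks of the same ChIP (open diamonds) with each property on the vertical axis; motif shares are over 200-bp windows. The diamonds for sharing and for both replicates lie inside the bars, and those for promoters lie to the right of them, at 50.4% for GR and 39.1% for E2A.

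Motifs were searched in a central window of 200 bp per merged peak, leaving out peaks wider than 2000 bp. A GRE, allowing up to 2 mismatches to the consensus palindrome on either strand, was found in 47 of 157 microRNA GR windows (29.9%, 23.3 to 37.5) against 17.8% of all GR windows, and in 16.5% of the E2A windows (10.3 to 25.4) against 10.4%. The E-box letters CANNTG occurred in 65.6% of GR windows (57.9 to 72.6) against 54.7%, and in 62.6% of the E2A windows (52.4 to 71.9) against 59.3%; the letters read the same on both strands and can overlap a GRE. The microRNA windows had a lower GC content, 52.2% ± 10.7 (SD, n = 157) against 58.0% ± 12.3 for GR and 52.4% ± 10.7 (SD, n = 91) against 54.8% ± 12.0 for E2A. Outside promoters the shares of GR windows were 35.2% with a GRE (27.4 to 43.9) against 28.1%, and 71.2% with CANNTG (62.7 to 78.4) against 68.3%. There the GRE share of all windows lay within the interval, and with promoters it did not. With up to 1 mismatch 7.64% of the microRNA windows (4.43 to 12.9) held a GRE, against 5.27% of all.

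Near-complete GREs over the whole called GR peaks are printed for the sites with 0 mismatches and for those with 1 mismatch in a GR peak that met E2A, arms in capitals and spacer in lower case, on the plus strand of mm10. The element at Mir135a-1 was called in both GR replicates 23536 bp upstream of the hairpin in replicate 1, that at Mir698 in both replicates at -368 bp in replicate 1, within Inpp5b, and that at Mir8114 in both GR replicates, in a peak that was named for Mir8114 in replicate 2 only.
Mir135a-1, chr9:106130448-106130462: GGGACAgctTGTCCC
Mir698, chr4:124743147-124743161: GGAACAccgTGTTCT
Mir8114, chr1:153901625-153901639: AGAACAataTGTTCC
Mir5119, chr11:98293303-98293317: AGGACAcccAGTCCC
Mir6335, chr2:67882145-67882159: AGGACAtggAGTTCT
Mir6397, chr4:108088159-108088173: AGACCAggcTGTCCT
Mir7240, chr8:70798489-70798503: CGAACAaaaTGTTCT
The first 3 have 0 mismatches and the other 4 have 1. An E2A peak lay over the element itself at Mir5119 (replicate 1), Mir6335 (replicate 2) and Mir7240 (both replicates). At Mir8114 and Mir6397 the E2A peak met another part of the GR peak, and at Mir135a-1 and Mir698 none met it. A match gives only the letters present. In the 200-bp windows, not the whole peaks, a match with 0 mismatches was held by 2 of 157 microRNA GR windows (1.27%, 0.35 to 4.53). Of all GR windows, 1.08% held one.

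The nearest-gene rule names 1 gene a peak, so a hairpin within a long host gene can lie close to a peak and not be named. Counted instead from the 1228 hairpins of RefSeq, 215 lay within 10 kb of a GR peak (17.5%), 120 of an E2A peak (9.77%) and 91 of a shared peak (7.41%), while 25.6% of the 21938 protein-coding gene starts lay within 10 kb of a GR peak and 13.1% of an E2A peak. Of the 239 hairpins near either, 71 were named as a nearest gene and 168 were not, and 186 lay in a protein-coding gene. GR replicate 2 and E2A replicate 1 decided these counts: without GR replicate 2 the GR count was 108 and the shared count 47, and without E2A replicate 1 the E2A count was 47 and the shared count 37.

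Hairpins that were close to peaks and were not named included those in known metabolic genes. Mir378a, in Ppargc1b, a coactivator gene of mitochondrial metabolism, lay 496 and 866 bp from peaks of GR replicates 1 and 2 and 2466 bp from one of E2A replicate 1. Mir7085, in Slc37a4, the transporter gene for glucose 6-phosphate, lay 1833 and 1962 bp from GR peaks and 2091 bp from an E2A replicate 1 peak. Mir1192, in Klf9, a gene known to respond to glucocorticoids, lay 8046 and 6377 bp from GR peaks and 8161 and 8336 bp from E2A peaks, and Mirlet7g, in Wdr82, 6815 and 6834 bp from GR and 7684 and 7817 bp from E2A peaks, so both had all 4 samples within 10 kb. A called peak met 7 hairpins in GR replicate 1, 26 in GR replicate 2, 11 in E2A replicate 1 and 1 in E2A replicate 2. It covered the whole hairpin in 7, 23, 6 and 1 of these.

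Lists of microRNAs known for a cell type or pathway differed in how many hairpins lay within 10 kb. The lists were chosen with earlier results of these data known, so the intervals give counting error only and no excess was tested. Of 18 hepatocyte hairpins 10 lay near a GR peak (55.6%, 33.7 to 75.4) and 7 near an E2A peak (38.9%, 20.3 to 61.4), against 17.5% and 9.77% of all hairpins. The hepatocyte count was 8 in GR replicate 1 and 10 in GR replicate 2, and 7 and 5 in the E2A replicates. Those near a GR peak were Mir101a, Mir101b, Mir122, Mir148a, Mir192, Mir194-2, Mir21a, Mir22, Mir31 and Mir378a. Of these, Mir192 and Mir194-2 are neighbours and share their nearest peaks. Of the let-7 family 7 of 12 lay near a GR peak and 4 of 12 near an E2A peak. The let-7 GR count was 4 without either GR replicate, and neighbours such as Mirlet7a-1, Mirlet7f-1 and Mirlet7d share a peak. Of the list for lipid or glucose metabolism 6 of 25 lay near a GR peak and 4 of 25 near an E2A peak, the latter count being 2 without E2A replicate 1.

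Of the other lists, those of blood and immune cells, of the miR-30 family and of muscle and brain were near peaks in few or no cases. Of 16 hairpins of blood and immune cells and of 7 of the miR-30 family, 0 lay within 10 kb of any peak, with an upper Wilson limit of 19.4% and 35.4%. Of 17 hairpins of muscle and brain, Mir219a-1 alone was near a called peak, at 113 bp in GR replicate 2 and 2717 and 205 bp in E2A replicates 1 and 2. Of the endothelial and stellate list 2 of 6 were near, Mir126a and Mir126b, which overlap. Mir126b was named for a GR replicate 2 peak at -3564 bp, and Mir181a-1, of the immune list, for a GR replicate 2 peak at -214505 bp. Of the miR-17-92 and miR-106b clusters 9 of 9 lay near an E2A peak and 6 of 9 near a GR peak, but the hairpins of a cluster share their nearest peak, and the count was 0 in GR replicate 1 and in E2A replicate 2. The median distance to a GR peak was 3.23 kb for the hepatocyte list, 8.59 kb for miR-17-92, 8.66 kb for let-7 and 37.4 kb for metabolism. It was 52.5 kb for miR-30, 70.6 kb for blood and immune, 73.1 kb for muscle and brain and 74.9 kb for endothelial and stellate, against 70.7 kb for all hairpins. To an E2A peak it was 8.13 kb for miR-17-92, 21.7 kb for endothelial and stellate, 55.4 kb for hepatocyte and 70.7 kb for blood and immune. It was 78.5 kb for miR-30, 80.6 kb for let-7, 112 kb for metabolism and 120 kb for muscle and brain, against 181 kb for all hairpins.

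**Figure D4:**
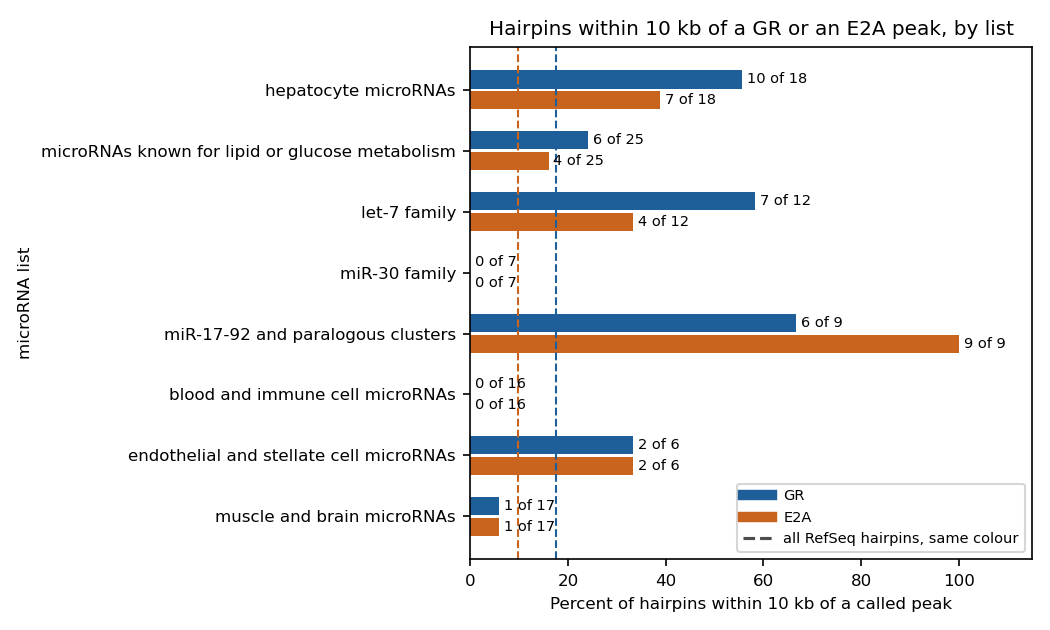
Percent of the hairpins of each list (vertical axis) within 10 kb of a called GR (blue) or E2A (orange) peak, with the counts beside the bars; dashed lines give all 1228 RefSeq hairpins, 17.5% for GR and 9.77% for E2A. The hepatocyte bars (10 of 18 and 7 of 18) pass the dashed lines. So do both bars of the let-7, miR-17-92, endothelial and stellate, and lipid or glucose metabolism lists. The blood and immune list is at 0 of 16 and the miR-30 list at 0 of 7, and the muscle and brain bars stay below the lines.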

How the data were processed

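Peaks of GR ChIP-Seq and E2A ChIP-Seq in 4 liver samples were taken as the authors deposited them, 1 list of called peaks per sample on mm10 with the nearest gene, its annotation and the distance to its start as other values, without read counts, heights or scores. Per the labels' processing notes the tools were BWA 0.7.13, Picard 1.119 and MACS2 2.1.0. The study's methods give other versions of Picard and MACS2 and a downsampling of read pairs to a fixed number per ChIP, and which were used for these lists was not settled. The peak threshold, the control and the annotation tool are not given in the sources used here. The plain interval files were not used.

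Genes were selected by symbol (Mir and a digit, or Mirlet7). Members and lists were chosen with earlier results of these data known. Genes named in the text had peaks in 3 or 4 samples, a shared peak, peaks in both replicates of a ChIP, or a place in a list. Mir6388, Mir6978 and Mir3075 were added after their values were seen. Replicate peaks sharing at least 1 bp were merged, and GR and E2A peaks sharing at least 1 bp were called shared. Motifs were searched in 200-bp windows of peaks of at most 2000 bp, the GRE with up to 2 mismatches. Intervals are Wilson 95%. RefSeq GRCm38.p6 gave sequences and 1228 hairpins, GENCODE vM21 gave host genes. Counting was tested on simulated peaks. Python 3.11.15, numpy 2.4.6, pandas 2.3.3, scipy 1.17.1, pysam 0.24.0 and matplotlib 3.10.9 were used. No test between conditions was made, since all samples are E47+/+. Alternatives left out each sample, kept peaks of both replicates only, and varied overlap, width, distance, windows and mismatches.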

Additional observations from a re-analysis of the deposited data

How the results depend on the processing

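Of 89 values under alternatives, 59 stayed within the limit set for them (1.5 times a count, the interval of a share) and 30 did not. With only peaks called in both replicates, the number of genes fell to 40 for GR, 19 for E2A and 11 for shared peaks, the share of GR peaks meeting E2A to 21.2%, and hairpins within 10 kb to 81 for GR, 35 for E2A and 19 for shared peaks. With centres at most 250 bp apart, 47.3% of E2A peaks met GR. In 400-bp windows a GRE was found in 40.8% and CANNTG in 86.0% of GR windows and 87.9% of E2A windows, and with up to 1 mismatch the GRE share was 7.64%. Within 5 kb the hairpins numbered 141 for GR, 71 for E2A and 51 for shared peaks, and within 50 kb 511, 350 and 252.

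Leaving out 1 sample at a time gave 68 to 72 genes with GR, 28 to 57 with E2A and 18 to 40 with a shared peak. It gave 12.3% to 40.0% of GR peaks meeting E2A, 39.8% to 63.9% of E2A peaks meeting GR, and 12.7% to 30.8% of GR peaks in promoters. Hairpins numbered 108 to 194 for GR, 47 to 111 for E2A and 37 to 87 for shared peaks. The lowest E2A and shared counts came without E2A replicate 1 and the lowest GR hairpin count without GR replicate 2. For the hepatocyte list, in alternatives chosen after seeing the data, the GR count of 10 was 9 within 5 kb, 17 within 50 kb, 8 with both replicates required and 8 to 10 without 1 sample. The causes were not tested. Sharing without 1 sample, or with both replicates required, was not counted over all peaks or all nearest genes. No paired analysis was possible because the results are counts of called peaks and come from no test. Depth per peak is unknown.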
